A study of Mus musculus with 3 samples.

Results

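The early response of cultured inhibitory neurons was read by setting RNA after 1 h in 55 mM KCl against RNA at 0 h, gene by gene. The neurons were derived from the medial ganglionic eminence (MGE), an embryonic forebrain region that produces inhibitory interneurons. The embryos were C57Bl/6 mice, labelled WT (wild type), taken at embryonic day 14, and the neurons were grown for 10 days in vitro. On day 9 all cultures, the 0 h control included, were silenced overnight with TTX, which blocks sodium channels, and AP-5, which blocks NMDA receptors, and on day 10 they were depolarized with KCl for 0, 1 or 6 h. Total RNA without ribosomal RNA was read by strand-specific sequencing in 1 library per time, and 2 of the 3 libraries make up the comparison of 1 h with 0 h. Of 25562 gene models, 10093 were measured in exons, meaning at least 20 sense exonic reads at 0 h or 1 h, and 8143 were measured in introns by the same minimum on sense intronic reads.

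Depolarization opens voltage-gated calcium channels, and calcium-driven kinases then switch on immediate early genes, whose transcription needs no new protein. Many of these genes encode transcription factors, and others encode enzymes and adaptors that damp the signal again. Total RNA holds spliced messages and unspliced transcripts together: intronic reads come mostly from RNA that is still being made or processed, and exonic reads largely from the standing pool of messages.

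A gene is called higher or lower here when the ratio of its scaled reads, 1 h to 0 h, was at least 2 or at most 0.5, its exact 95% counting interval excluded 1, and at least 20 reads were counted in 1 of these libraries. With 1 library per time cultures have no measured spread and no p-value is given, so each ratio compares these libraries only. The intervals, given in brackets after the ratios, cover counting error only. Without molecular identifiers PCR copies are counted as reads, and each distinct position carried 2.45 reads at 0 h and 2.6 at 1 h. The intervals take each read as a separate count, so they are too narrow where reads are copies. Genes with few reads can meet the rule by counting error alone. The 0 h and 1 h libraries had 8996897 and 8549377 mapped reads, of which 24.3% and 28.7% were exonic and 23.6% and 20.9% intronic. A floor of 3 reads stood at 1.37 and 1.22 RPM (reads per 1000000 exonic reads).

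Markers of MGE-derived interneurons were present at both times. Of the 20 matched, 19 were measured in exons and none was called there in either direction, and together they held 8813 scaled RPM at 0 h and 8598 at 1 h. In introns 13 were measured, and Sst, Gad1, Slc32a1 and Dlx5 were higher and Satb1 lower. The higher share was 30.8%, beside 13.2% for all genes of the same intron lengths. Sst, Slc32a1 and Dlx5 have 0.7, 2.2 and 2.9 kb of intron, and 38.9% of genes with up to 3 kb were higher. Their intronic reads at 0 h were 12, 10 and 19, so they reached 20 reads at 1 h alone. Intronic calls also depend on the scale, as described below. Markers of astrocytes and radial glia, the next largest class, held 3272 and 3312 RPM, those of dividing cells 233.4 and 236.0, and none of the 12 microglial markers was measured. In such bulk samples, fewer cells of a type and less RNA per cell cannot be told apart.

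In exons, 159 genes were higher at 1 h, which was 1.58% of the genes measured, and 144 were lower, or 1.43%. The median log2 ratio of all measured genes was 0.01. This near balance depends on the scaling: 52.5% of the calls were higher, against 85.1% when the libraries were scaled to all mapped reads, a scale that shifts the median of all genes to 0.25 and leaves 52 lower genes. The higher calls were larger, since 59 higher genes and 19 lower genes were past 3-fold. Higher genes had a median of 17.0 reads at 0 h and 52.0 at 1 h, and lower genes 37.0 and 17.0. The summed intron length had a median of 5.47 kb in the higher genes and 21.2 kb in the lower ones.

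Classic immediate early genes made up 35 of the 159 higher genes. Of the 50 on the list, 44 were measured, none was lower, and the median log2 ratio was 2.69. A gene with few reads at 0 h is measured only if it is high at 1 h, so shares over measured members lean to higher calls: 21 of these 44 reached 20 reads at 1 h alone, and of the other 23, 16 were higher. Beyond them stood 124 higher genes, 36 of which fell in another list of genes by function and 88 in none. These 124 are described below by function, and those named ranked among the 30 whose interval lay farthest from 1 or belonged to a list, unless stated otherwise. The ratios of the 30 ran from 2.01 to 37.5 with a median of 3.09. Reads at 6 h are given beside them as the last value, and any ratio of 6 h to 0 h shares the 0 h library with the comparison. Exonic counts of every list below are to be read beside 1.58% higher and 1.43% lower of all genes measured.

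**Figure D1:**
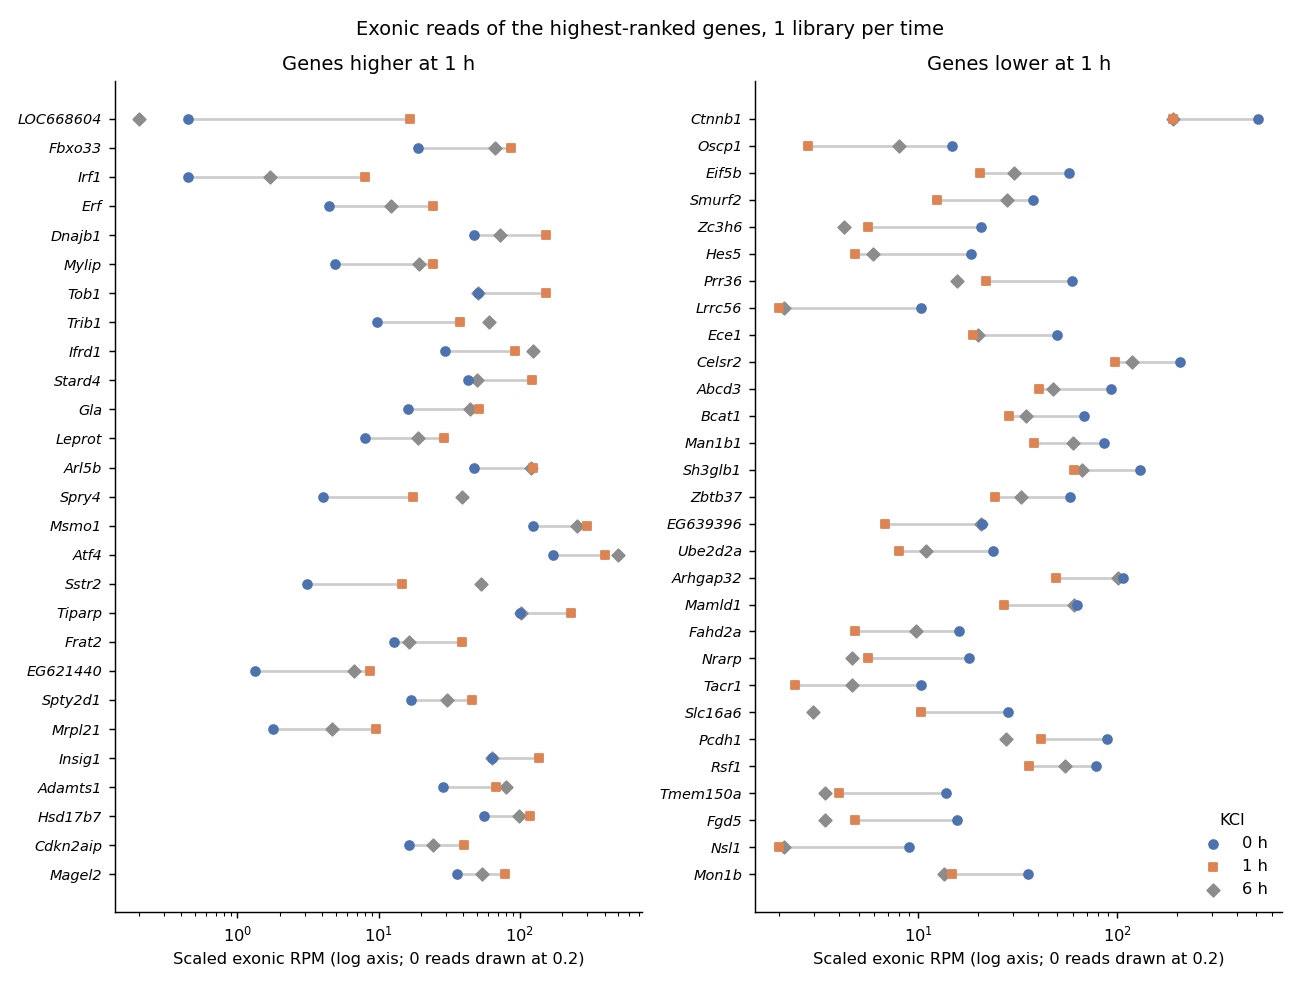
Scaled exonic RPM (log axis) at 0 h (blue circles), 1 h (orange squares) and 6 h (grey diamonds) of 27 of the 30 highest-ranked genes outside the immediate early list that were higher at 1 h (left) and 29 of the 30 that were lower (right), 1 library per time. Grey lines join 0 h and 1 h, and LOC668604, with 0 reads at 6 h, is drawn at the left edge for that time. The lower genes span ratios of 0.189 to 0.468, a narrower range than the 2.11 to 37.5 of the higher genes.

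Feedback inhibitors of growth factor signalling were higher in part. Of 15 measured MAP kinase phosphatase, Sprouty and Spred genes, 6 were higher and 0 lower, with a median log2 ratio of 0.64, and 4 of the 6 (Dusp1, Dusp4, Dusp5 and Dusp6) are also on the immediate early list. Of the 15, 4 reached 20 reads at 1 h alone, and of the other 11, 3 were higher. Spry4, whose product inhibits receptor tyrosine kinase signalling, had 9, 44 and 93 exonic reads at 0, 1 and 6 h, so that it was 4.36-fold higher at 1 h (2.10 to 10.2). Spry1 had 13, 34 and 28 reads, 2.33-fold (1.20 to 4.82). Erf, a repressor of the ETS family that ERK kinase keeps out of the nucleus, was on no list and had 10, 61 and 29 exonic reads, 5.44-fold (2.77 to 11.9), and 5, 24 and 8 intronic reads. Spry4 had its most reads at 6 h, and Erf and Spry1 at 1 h.

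Most factors of messenger RNA decay were not called, and the higher ones were of the Tob and Btg family, adaptors that bring the poly(A)-removing deadenylase to messages. Tob1 had 114, 386 and 120 exonic reads, 3.02-fold higher at 1 h (2.44 to 3.75), and 9, 47 and 15 intronic reads. Btg1, of the same protein family, had 37, 85 and 47 exonic reads, 2.05-fold (1.38 to 3.10). With the immediate early gene Btg2, at 53, 345 and 43 reads, these were the 3 higher of 34 measured decay and deadenylation factors, none was lower, and the list's median log2 ratio was -0.11. Tob2, named after its values were seen, had 46, 102 and 66 reads and at 1.98-fold lay just under the limit. All 4 had most reads at 1 h.

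Growth arrest genes gave 6 higher of 26 measured and 0 lower, with a median log2 ratio of 0.19. Of the 26, 6 reached 20 reads at 1 h alone, and of the other 20, 3 were higher. Beside the immediate early members Btg2, Gadd45b and Gadd45g they were Cdkn2c, an inhibitor of cyclin-dependent kinases, with 4, 20 and 4 reads, Sertad1 with 8, 23 and 10, and the polo-like kinase gene Plk3 with 20, 50 and 39. Each of these rests on 50 reads or fewer in any library. Kinases and pseudokinases gave 4 higher of 31 and 0 lower, beside 1.58% higher of all genes measured. Trib1, a pseudokinase that brings proteins to a ubiquitin ligase, had 22, 95 and 144 exonic reads, 3.85-fold (2.40 to 6.43), and 6, 34 and 28 intronic reads. On coding reads alone, 3 at 0 h and 33 at 1 h, its ratio was 9.80. Pim3, a survival kinase, had 24, 57 and 41 reads, 2.12-fold (1.29 to 3.57).

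Genes of protein turnover were called in both directions, at a share near that of all genes. Of 65 measured ubiquitin ligases and deubiquitinases, 2 were higher and 1 lower, with a median log2 ratio of -0.06. Fbxo33, a substrate receptor of an SCF ubiquitin ligase, had 43, 217 and 159 reads, 4.50-fold (3.23 to 6.40), in its coding part (26 reads to 115) and in its 3′ untranslated region (13 to 87) alike. Siah2, a RING ligase, had 48, 113 and 92 reads, 2.10-fold (1.49 to 3.01). Mylip, a RING ubiquitin ligase, was on no list and had 11, 61 and 46 exonic reads, 4.95-fold (2.58 to 10.4), and 20, 90 and 47 intronic reads. Smurf2, the lower member, is described with the lower genes.

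Stress-response genes were higher in small numbers, to be read beside 1.58% higher of all genes measured. Of 32 measured genes of the integrated stress and unfolded protein responses, 3 were higher and 0 lower, with a median log2 ratio of 0.26. They were Atf3, Atf4 and Ppp1r15a. Atf4, the transcription factor of the integrated stress response, had 386, 1012 and 1186 exonic reads, 2.34-fold higher (2.08 to 2.64). Ppp1r15a, which directs a phosphatase to initiation factor eIF2, had 38, 96 and 64 reads, 2.25-fold (1.53 to 3.37). When scaled to all mapped reads the list held 5 higher genes. Of 25 cytosolic heat shock proteins and cochaperones, 2 were higher and 0 lower: Dnajb1, a cochaperone of HSP70, with 107, 388 and 172 reads, 3.23-fold (2.60 to 4.04), and the small heat shock gene Hspb8 with 17, 42 and 58, 2.20-fold (1.23 to 4.13).

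NF-kappaB and cytokine response genes were mostly too low to measure: 12 of 31 were measured, of which 4 were higher and 0 lower. Of the 12, 6 reached 20 reads at 1 h alone, and of the other 6, 1 was higher (Ifrd1). Irf1, a transcription factor of the interferon response, had 1, 20 and 4 reads, 17.8-fold (2.85 to 739). Nfkbiz, a nuclear regulator of NF-kappaB, had 8, 31 and 29, and the adhesion molecule gene Icam1 had 6, 20 and 10. Ifrd1, a transcriptional coregulator, was better counted, with 66, 234 and 295 exonic reads, 3.16-fold (2.40 to 4.22), and 88, 710 and 273 intronic reads, 11.0-fold (8.79 to 13.9). A few other genes were chosen after their values were seen. Tap1, a peptide transporter, had 9, 31 and 10 reads, 3.07-fold (1.43 to 7.34), H2-K1 had 16, 41 and 18, and H2-D1 had 17, 41 and 30, while B2m, the class I light chain, was not called at 42, 52 and 67. The class I genes have near-identical copies, so their own counts are uncertain.

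Receptors, small GTPases and secreted proteins were represented by a few genes each. Sstr2, a receptor for the interneuron peptide somatostatin, had 7, 37 and 127 exonic reads, 4.71-fold higher at 1 h (2.07 to 12.5) and higher still at 6 h. Arl5b, a small GTPase of the trans-Golgi, had 106, 314 and 286 exonic reads, 2.64-fold (2.11 to 3.32), and 88, 375 and 84 intronic reads, although on coding reads alone its ratio was 1.90. Rem2, a GTPase that inhibits calcium channels, had 13, 41 and 72 reads, 2.81-fold (1.48 to 5.72), and was the 1 higher gene of 29 measured small GTPases and RGS genes. Adamts1, a secreted metalloprotease, had 64, 170 and 191 reads, 2.37-fold (1.77 to 3.21), and Ccn2, a matricellular protein, 14, 39 and 224. Lrrtm1, a postsynaptic adhesion protein, had 41, 100 and 123 reads, 2.18-fold. Of these genes, Sstr2, Rem2, Adamts1, Ccn2 and Lrrtm1 had their most reads at 6 h.

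Chromatin and transcription factors were few among the higher genes outside the immediate early list. Spty2d1, a histone chaperone, had 38, 116 and 72, 2.72-fold (1.87 to 4.04), and 1.78-fold on coding reads alone. None of 61 measured histone-modifying and remodelling enzymes was called in exons, and their median log2 ratio was -0.21. In introns 2 of 60 were higher and 0 lower, or 3.33% higher beside 5.18% for all genes of the same intron lengths. They were Hdac5, a histone deacetylase, at 4.13-fold (3.25 to 5.28) and Chd2, a remodeller, at 2.16-fold (1.97 to 2.37). When introns were scaled by the exonic factors, 1 enzyme was higher and 6 lower. Tiparp, an enzyme that attaches ADP-ribose and is a target of the aryl hydrocarbon receptor, had 224, 581 and 242 exonic reads, 2.31-fold (1.98 to 2.71), and 149, 557 and 152 intronic reads. Among forebrain lineage factors, 2 of 45 were higher, Lhx8 with 28, 75 and 50 reads and Emx2 with 8, 23 and 12, and none was lower. Hes1, a Notch target, had 9, 27 and 16 reads, 2.68-fold (1.22 to 6.47), and reached the read minimum at 1 h alone. Its direction was opposite to that of Hes5.

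The remaining named higher genes share no list. Gla, the lysosomal alpha-galactosidase, had 36, 130 and 105 reads, 3.22-fold (2.21 to 4.80). Leprot, an endosomal protein that regulates receptor display at the cell surface, had 18, 73 and 45, 3.62-fold (2.14 to 6.44). Frat2, a binding protein of the kinase GSK3, had 29, 98 and 39, 3.01-fold (1.97 to 4.73). Magel2, an imprinted gene without introns whose product acts with ubiquitin ligases, had 81, 197 and 128, 2.17-fold (1.67 to 2.85), and Cdkn2aip 37, 102 and 58, 2.46-fold (1.67 to 3.69). Mrpl21, of the mitochondrial ribosome, rests on 4, 24 and 11 reads and was the 1 higher gene of 45 measured with symbols that open with Mrpl. LOC668604 and EG621440 are predicted genes with 1, 42 and 0 and with 3, 22 and 16 reads.

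Promoter sequence was searched for the cAMP response element, the binding site of CREB, a factor that calcium-driven kinases activate. The windows ran from 250 bases before to 50 after the RefSeq start site (GRCm38.p6), and both strands were read. Its full word, TGACGTCA, was in the window of 3 of 26 immediate early genes that were higher and had a window (11.5%), 6 of 101 other higher genes (5.94%) and 2 of 100 lower genes, against 3.96% of measured genes and 2.03% of all genes with a window. The shorter word TGACG, which every full word contains, was in 76.9%, 53.5% and 30.0% of the same 3 groups, against 37.6% of measured genes and 23.0% of all. Other words were searched too. The E-box word CACGTG was in 30.8%, 10.9% and 11.0% of these groups, against 12.3% of measured genes. The AP-1 word TGANTCA was in 3.85%, 5.94% and 5.00%, against 5.58%. The CArG box, the word bound by SRF, was in 3 of the 26 immediate early genes, 0 of the 101 other higher genes and 2 of the 100 lower genes. Its share was 1.40% of measured genes and 1.81% of all genes, so few matches are to be had in groups of this size. A match is a string of letters in this window and does not show binding, and the groups were set by the exonic calls.

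The stretches around the full word are shown because these 6 are all the higher genes outside the immediate early list that hold it. The response element is in capitals and the sequence is written in the direction of the gene, with up to 36 bases on either side and none beyond the start site. The intervals are chr2:15055163-15055242 on the + strand for Arl5b, chr3:65958250-65958303 on the - strand for Ccnl1, chr3:135212493-135212562 on the + strand for Cenpe, chr13:75089743-75089822 on the + strand for Pcsk1, chr7:45526269-45526316 on the - strand for Ppp1r15a and chr11:113619233-113619312 on the + strand for Sstr2.
Arl5b: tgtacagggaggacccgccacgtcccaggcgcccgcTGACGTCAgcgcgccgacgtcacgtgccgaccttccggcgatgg
Ccnl1: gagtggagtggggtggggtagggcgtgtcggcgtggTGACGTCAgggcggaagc
Cenpe: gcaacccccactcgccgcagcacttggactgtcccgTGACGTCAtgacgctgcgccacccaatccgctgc
Pcsk1: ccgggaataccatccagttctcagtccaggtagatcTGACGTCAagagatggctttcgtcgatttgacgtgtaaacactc
Ppp1r15a: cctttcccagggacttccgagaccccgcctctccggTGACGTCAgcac
Sstr2: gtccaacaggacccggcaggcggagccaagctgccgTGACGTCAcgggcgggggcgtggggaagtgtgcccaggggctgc

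The word opened 121, 18, 34, 78, 12 and 58 bases before the start site of Arl5b, Ccnl1, Cenpe, Pcsk1, Ppp1r15a and Sstr2. These genes differed in their introns. Pcsk1, the prohormone convertase that cleaves neuropeptide precursors, had 28, 63 and 204 exonic reads, 2.01-fold (1.27 to 3.25), but 20, 544 and 113 intronic reads. Ccnl1, a cyclin that acts in splicing, had 77, 177 and 90 exonic reads, 2.05-fold (1.56 to 2.72), and 147, 427 and 175 intronic reads. Cenpe, a kinetochore motor, stood just inside the 2-fold limit with 16, 36 and 21 exonic reads, and its introns had 24, 10 and 6. Pcsk1 and Ccnl1 were higher in exons and introns, and Cenpe in exons only. The 2 lower genes with the word, Fahd2a and Ice2, hold it 23 and 85 bases before their start sites, at chr2:127444566-127444624 on the - strand and chr9:69397877-69397956 on the + strand.
Fahd2a: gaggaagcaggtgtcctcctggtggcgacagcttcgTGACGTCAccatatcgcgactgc
Ice2: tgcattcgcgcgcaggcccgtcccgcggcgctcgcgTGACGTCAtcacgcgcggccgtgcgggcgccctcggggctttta

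Among the lower genes the best counted was Ctnnb1 (chromosome 9, 120842593 to 120869625, mm9), which encodes beta-catenin, a linker of cadherins to actin and the effector of Wnt signalling. It had 1148 exonic reads at 0 h, 477 at 1 h and 449 at 6 h, a ratio of 0.371 (0.332 to 0.413). The decrease was spread over the message: all 14 exons with at least 5 reads were lower, coding reads were 686 and 291, and reads of the 3′ untranslated region 407 and 167. Intronic reads were 192, 196 and 163, a ratio of 1.39 (1.13 to 1.70) on the intronic scale. Of the 33 measured catenin and Wnt pathway genes Ctnnb1 was the 1 lower gene, and 0 were higher. Its ratio was 0.437 when scaled to all mapped reads.

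The 30 highest-ranked lower genes were chosen by their summed exonic reads. Lower exons, and lower coding or 3′ untranslated ratios, follow largely from that choice. These genes had 142 exons with at least 5 reads, of which 138 were lower. In all 14 genes in which coding and 3′ untranslated reads were both measured, both ratios were under 1, and in 9 of them both were at most 0.5. Introns were measured in 20 of the 30, and 1 was lower (Tacr1), 1 higher (Man1b1) and 18 neither. Their ratios at 6 h against the same 0 h library had a median of 0.458 and ran from 0.105 to 0.986, with 16 at or under 0.5. Since the genes were chosen for high 0 h reads against 1 h, a ratio under 1 at 6 h is no separate evidence.

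Adhesion and polarity genes included 2 large cadherins. Celsr2, a seven-pass cadherin of planar polarity, had 465, 244 and 281 reads, a ratio of 0.468 (0.399 to 0.548), with 21 of 22 exons lower. Pcdh1, a protocadherin, had 199, 104 and 65 reads, 0.466 (0.364 to 0.594), but without its exon of most reads the ratio was 0.849. Scaled to all mapped reads the ratios were 0.552 and 0.550, past neither limit. Of 35 measured cadherins, protocadherins and adhesion receptors these were the 2 lower, and 0 were higher. Of all genes measured 1.43% were lower, and the count of this list rests on 2 genes.

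Notch targets and their relatives were called in both directions, but the higher call was Hes1 alone. Of 7 measured Hes, Hey, Id and related bHLH genes, 1 was higher (Hes1) and 1 lower (Hes5), with a median log2 ratio of 0.22, and Hey1 and Hes6 were not called at 1.07 and 1.16. Hes1, with 9 reads at 0 h and 27 at 1 h, reached the read minimum at 1 h alone. Of the other 6 genes, 0 were higher. Hes5, a Notch-induced repressor of neuronal differentiation that also marks radial glia, had 41, 12 and 14 reads, 0.261 (0.125 to 0.506). Nrarp, a Notch target that dampens Notch signalling, had 40, 14 and 11, 0.312 (0.157 to 0.586). Of 17 measured Notch receptors, ligands and processing genes, 0 were called in either direction, with a median log2 ratio of -0.07. The 15 measured markers of astrocytes and radial glia had Hes5 as the 1 lower and 0 higher, with a median of -0.12. The part of glial cells in the value of Hes5 was not tested.

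Growth factor and ubiquitin signalling gave Smurf2, a ligase that targets TGF-beta receptors and SMAD proteins, with 84, 31 and 66 reads, 0.329 (0.211 to 0.502), lower in 7 of 7 exons. It was the 1 lower of 22 BMP and TGF-beta genes, with 0 higher. Bmp7, a secreted ligand of this pathway on the list of secreted factors, had 20, 10 and 13 exonic reads, 0.446 (0.186 to 0.998), and 21, 4 and 6 intronic reads, a ratio of 0.259. Ube2d2a, a ubiquitin-conjugating enzyme, had 53, 20 and 26 exonic reads, 0.337 (0.191 to 0.572), all but a few in its 3′ untranslated region. Its family has near-identical members, so this count is uncertain.

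RNA and translation were represented by Eif5b, which joins the ribosomal subunits at the start codon, with 128, 51 and 72 reads, 0.355 (0.252 to 0.495), lower in 6 of 6 exons. It was the 1 lower of 46 measured initiation and elongation factors, with 0 higher and a median log2 ratio of 0.07. Zc3h6, a CCCH zinc finger protein, had 46, 14 and 10 reads, 0.271 (0.138 to 0.502). Genes with symbols that open with Zfp, mostly zinc finger transcription factors, gave 0 higher and 6 lower of 255 measured (2.35%, beside 1.43% of all genes), Zfp786, Zfp930, Zfp945, Zfp35, Zfp518a and Zfp300, with a median log2 ratio of -0.14 beside 0.01 for all genes. The Zbtb genes, zinc finger factors with a BTB domain, gave 0 higher and 2 lower of 34 (5.88%), with a median of -0.25. These were Zbtb37, with 130, 61 and 78 reads, 0.418 (0.304 to 0.571), and Zbtb18, a repressor needed in neuronal development, with 35, 14 and 33. The Zbtb share thus rests on 2 genes. Across symbol families with at least 30 measured genes, the lower share ran from 0% (such as Atp) to 6.67% (Lrrc). On the scale of all mapped reads the median of all genes is 0.25, so these medians are read only relative to that of all genes.

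Other named lower genes encode enzymes, transporters and trafficking proteins of several kinds. Abcd3, a transporter of the peroxisomal membrane, had 208, 102 and 113 reads, 0.437 (0.342 to 0.557), and Bcat1, the cytosolic branched-chain aminotransferase, 152, 72 and 82, 0.422 (0.315 to 0.563). Sh3glb1, or endophilin B1, had 290, 152 and 158, 0.467 (0.382 to 0.571). Ece1, which cleaves endothelin precursors, had 111, 47 and 47, 0.378 (0.263 to 0.536). Abcd3, Bcat1 and Sh3glb1 were lower in all of their 8, 6 and 7 exons with at least 5 reads, and Ece1 in 3 of 4. In Ece1 coding reads were 65 at 0 h and 38 at 1 h, and 3′ untranslated reads 46 and 8. For each of these genes the reads at 6 h were near those at 1 h. Slc16a6, of the monocarboxylate transporter family, had 63, 26 and 7 reads, lowest at 6 h. Fahd2a, of the fumarylacetoacetate hydrolase family, had 36, 12 and 23, and Mon1b, a protein of endosome maturation that overlaps another gene on its strand, had 80, 37 and 32, with a ratio of 0.547 without its exon of most reads.

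Man1b1, a mannosidase of glycoprotein quality control, differed between its exons and introns. Its exonic reads were 193, 96 and 142, 0.444 (0.344 to 0.570), with 7 of 7 exons lower, and its intronic reads were 32, 62 and 37, 2.64-fold higher (1.69 to 4.18), with 4 of 4 introns higher. Exons and introns were scaled by separate factors here, and on the scale of all mapped reads its exons were not called. Itprid2, which falls outside the naming rule, was the other gene lower in exons and higher in introns. Tacr1, the receptor for substance P, was lower in both, with 23, 6 and 11 exonic reads and 31, 8 and 15 intronic reads.

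Several lower genes had reads at 6 h close to those at 0 h. Arhgap32, a GTPase-activating protein, had 238, 124 and 239 reads, 0.465 (0.371 to 0.580), and Mamld1, a coactivator of the Notch-related Mastermind family, 140, 68 and 143, 0.433 (0.319 to 0.583). Mrtfb, a coactivator of SRF, had 83, 39 and 98, 0.419 (0.279 to 0.620), and was the 1 lower of 24 measured actin and SRF-target genes, of which 4 were higher. Klf15 had 55, 30 and 60. By contrast Prr36, a proline-rich protein gene, had 133, 55 and 37 reads, fewest at 6 h. EG639396, a predicted gene that overlaps another on its strand, had 47, 17 and 49.

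Receptor and channel genes gave small counts, to be read beside 1.58% higher and 1.43% lower of all genes measured. Of 31 measured glutamate and GABA receptor genes, 0 were higher and 2 lower, Grm4 with 42, 23 and 17 reads and Grik4 with 24, 12 and 10. Of 38 potassium channel genes, 0 were higher and 2 lower, Kcnv1 with 35, 17 and 20 and Kcnj9 with 27, 15 and 23, and of 33 sodium and calcium channel genes none was called. The lower shares of the receptor and potassium channel lists were above that of all genes, but each rests on 2 genes. On the scale of all mapped reads these 4 lower genes were no longer called. Outside the lists, and chosen after their values were seen, the potassium channel subunit gene Kcnab3 (7, 27 and 17 reads) and the receptor genes Gpr19 (45, 116 and 100) and Adrb1 (15, 39 and 29) were higher. DNA repair and centrosome genes gave 0 higher and 3 lower of 38, Rad50, Cep72 and Ninl, beside 1.43% lower of all genes. Rad50, a subunit of the nuclease complex at DNA breaks, had 32, 15 and 9 exonic reads with 36, 4 and 5 in introns. Other named lower genes rested on at most 35 reads at 0 h: Oscp1 (33, 7 and 19), Lrrc56 (23, 5 and 5), Tmem150a (31, 10 and 8), Fgd5 (35, 12 and 8) and the kinetochore gene Nsl1 (20, 5 and 5). Rsf1, a chromatin remodelling factor, was better counted, with 174, 90 and 129 reads, 0.461 (0.354 to 0.598), and 0.544 on the scale of all mapped reads.

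Introns were scaled by factors of their own, and 609 genes were higher at 1 h (7.48% of those measured) and 504 lower (6.19%). The higher share of 54.7% of these calls depends on that scale: with the exonic factors it was 8.70%, and with all mapped reads 300 genes were higher and 1276 lower. The median log2 ratio of all genes moved from -0.05 to -0.66 and -0.42. Intronic ratios are therefore read against the other introns, and not as absolute levels. In both libraries the gene with most intronic reads was Cdk8, with 8.05% and 9.85% of them.

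Intronic calls followed the length of the introns. Of genes with up to 3 kb of intron in sum, 38.9% of 149 were higher and 1.34% lower. The higher share was 17.2% from 3 to 10 kb, 9.42% from 10 to 20 kb, 6.56% from 20 to 50 kb, 4.29% from 50 to 100 kb, 2.12% from 100 to 300 kb and 0% of 419 genes above 300 kb. The median log2 ratio went from 0.83 in the shortest class to -0.22 at 100 to 300 kb and -0.17 above. Exons showed a smaller trend in the same direction, with medians from 0.10 in the shortest class to -0.13 in the longest, and 5.22% and 0.279% of genes higher. Another scaling factor shifts the medians of all classes alike, and the shares by class are given on this scale only. The part of intron length in any gene's ratio was not tested, and for the gene groups below the share of higher genes among all genes of the same length is given beside the count. As in exons, a gene with few intronic reads at 0 h is measured only if it is high at 1 h. Shares of higher genes in introns, by class or by group, include such genes and were not split by reads at 0 h.

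**Figure D2:**
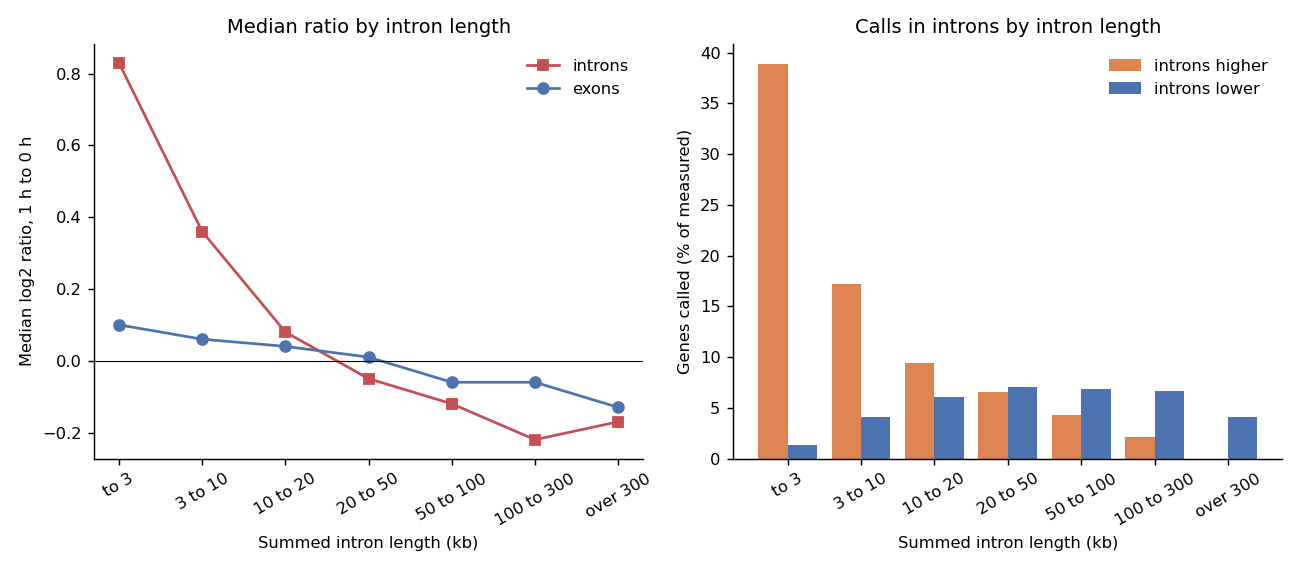
Left, the median log2 ratio (1 h to 0 h) of intronic (red squares) and exonic (blue circles) reads in 7 classes of summed intron length in kb. Right, the percent of genes measured in introns that were higher (orange) or lower (blue) by intron length. The higher share drops from 38.9% in the shortest class to 0% in the longest, and the lower share stays between 1.34% and 7.05%.

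Sterol genes had the most frequent intronic calls after the immediate early genes. Neurons make cholesterol from acetyl-CoA through the mevalonate pathway, and the transcription factor SREBP-2 drives its enzymes together when sterol in the endoplasmic reticulum is low. Of 27 measured in introns, 20 were higher and 0 lower, or 74.1%, beside 9.95% for all genes of the same intron lengths, and the median log2 ratio was 1.92. In exons 6 of 28 were higher and 0 lower, with a median of 0.29. With the exonic factors, or all mapped reads, 17 sterol genes were higher in introns and 1 lower. The share for the same intron lengths was then 3.58% or 5.01%.

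The intronic calls ran along the pathway. In the steps up to squalene, Idi1 had 39, 232 and 52 intronic reads, 8.10-fold (5.75 to 11.7), Fdps 41, 143 and 57, 4.75-fold (3.33 to 6.89), and Fdft1 105, 269 and 89, 3.49-fold (2.77 to 4.41). Idi1 had 0 exonic reads in every library and Fdps had 5, 15 and 12, so their messages were not measured here. Mvd and Pmvk, which act before Idi1, were 3.59-fold and 3.95-fold higher in introns, while the exonic ratio of Pmvk was 0.777 (0.589 to 1.02).

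Enzymes after squalene were called as well. Sqle, the squalene epoxidase, had 34, 214 and 50 intronic reads, 8.57-fold (5.95 to 12.7), with 336, 570 and 723 exonic reads. Cyp51, the lanosterol demethylase, had 98, 647 and 160 intronic reads, 8.99-fold (7.26 to 11.2), and its 571, 1279 and 1593 exonic reads put it just under the 2-fold limit. Hsd17b7 had 36, 268 and 100 intronic reads, 10.1-fold (7.14 to 14.8), and Msmo1 80, 499 and 140, 8.49-fold (6.69 to 10.9). Both were also higher in exons, Msmo1 with 278, 751 and 606 reads, 2.41-fold (2.10 to 2.77), and Hsd17b7 with 126, 298 and 233, 2.11-fold (1.71 to 2.62). Dhcr7, a last enzyme of the pathway, was 2.10-fold higher in introns.

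Genes of sterol transport and sensing divided. Stard4, a carrier of cholesterol between membranes, had 14, 205 and 29 intronic reads, 19.9-fold (11.6 to 37.1), and 97, 308 and 118 exonic reads, 2.83-fold (2.25 to 3.60). Insig1, which retains SREBP in the endoplasmic reticulum, had 64, 313 and 73 intronic reads, 6.66-fold (5.07 to 8.85). The genes not called in introns were Srebf2 itself at 1.51, Scap, its escort, at 0.540, Insig2 at 0.836, Npc1 at 0.769, the efflux transporters Abca1 at 1.18 and Abcg1 at 1.17, and Mvk at 1.93. In introns, reads at 6 h were back near the 0 h count for Insig1 (73 against 64), while the exonic reads of Cyp51 and Sqle were highest at 6 h.

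**Figure D3:**
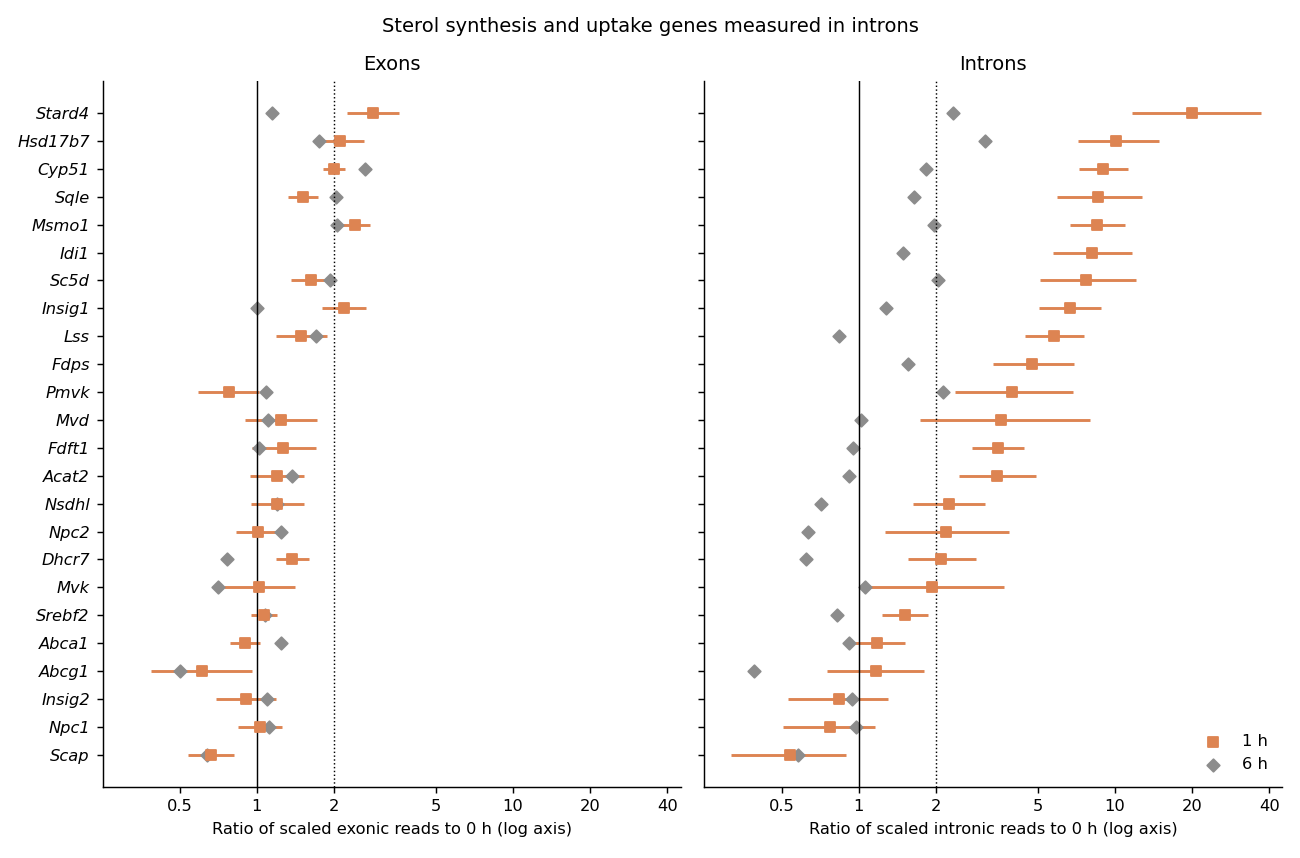
Ratios to 0 h of scaled exonic (left) and intronic (right) reads of 24 of the 27 sterol genes measured in introns, at 1 h (orange squares with exact 95% counting intervals) and 6 h (grey diamonds), on a log axis. The dotted line marks 2-fold. Genes with too few exonic reads have no exonic points. The genes drawn that were higher in introns at 1 h lie between 2.10 and 19.9, and wherever an exonic point is drawn for them it is the smaller ratio.

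The sterol regulatory element, searched as TCACNCCAC on both strands, was in the window of 0 of the 13 higher sterol genes with a window, against 1.44% of all genes. This says only that these letters are not in those windows.

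Fatty acid genes were called in introns and not in exons. Of 24 measured in exons, 0 were called, with a median log2 ratio of 0.08. Of 23 measured in introns, 8 were higher (34.8%, beside 8.98% for the same intron lengths) and 0 lower, with a median of 0.04. Elovl5, a fatty acid elongase, had 110, 423 and 145 intronic reads, 5.23-fold (4.23 to 6.52), and Acsl4, an acyl-CoA synthetase, 129, 504 and 188, 5.32-fold (4.37 to 6.50). Acly, Fasn and Scd2 were 3.30-fold, 3.19-fold and 3.49-fold higher. With the exonic factors 6 were higher, beside 3.23% for the same lengths, and 4 lower. Hsd17b12, an enzyme of fatty acid elongation on no list, had 114, 876 and 475 intronic reads, 10.5-fold (8.60 to 12.8), beside 179, 240 and 773 exonic reads.

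Some other groups had intronic calls at a share above that of their length. Integrated stress and unfolded protein genes gave 11 higher of 24 (45.8%, beside 12.7%), among them Herpud1 with 17, 76 and 44 intronic reads and the amino acid transporter gene Slc7a5 with 50, 140 and 102, whose exons were at 533, 518 and 901. With the exonic factors the count was 7 and the share for the same lengths 4.70%. Clock genes gave 6 of 17 (35.3%, beside 6.26%), namely Rorb, Cry1 and Cry2, which were not called in exons, and Nfil3, Per1 and Per2, which are also on the immediate early list. With the exonic factors 4 clock genes were higher (beside 2.06%) and 3 lower. Cry2 had 79, 210 and 97 intronic reads, 3.62-fold (2.78 to 4.75). Neuropeptide genes gave 4 of 11 (36.4%, beside 12.5%), Pcsk1, Pnoc, Sst and Scg2, and 3 with the exonic factors (beside 4.63%). Sst had 12, 63 and 38 intronic reads, 7.15-fold (3.82 to 14.6), and 1146, 1414 and 1841 exonic reads. Housekeeping reference genes also gave 6 of 13 (46.2%, beside 20.7%), and with the exonic factors 2 were higher (beside 7.90%).

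**Figure D4:**
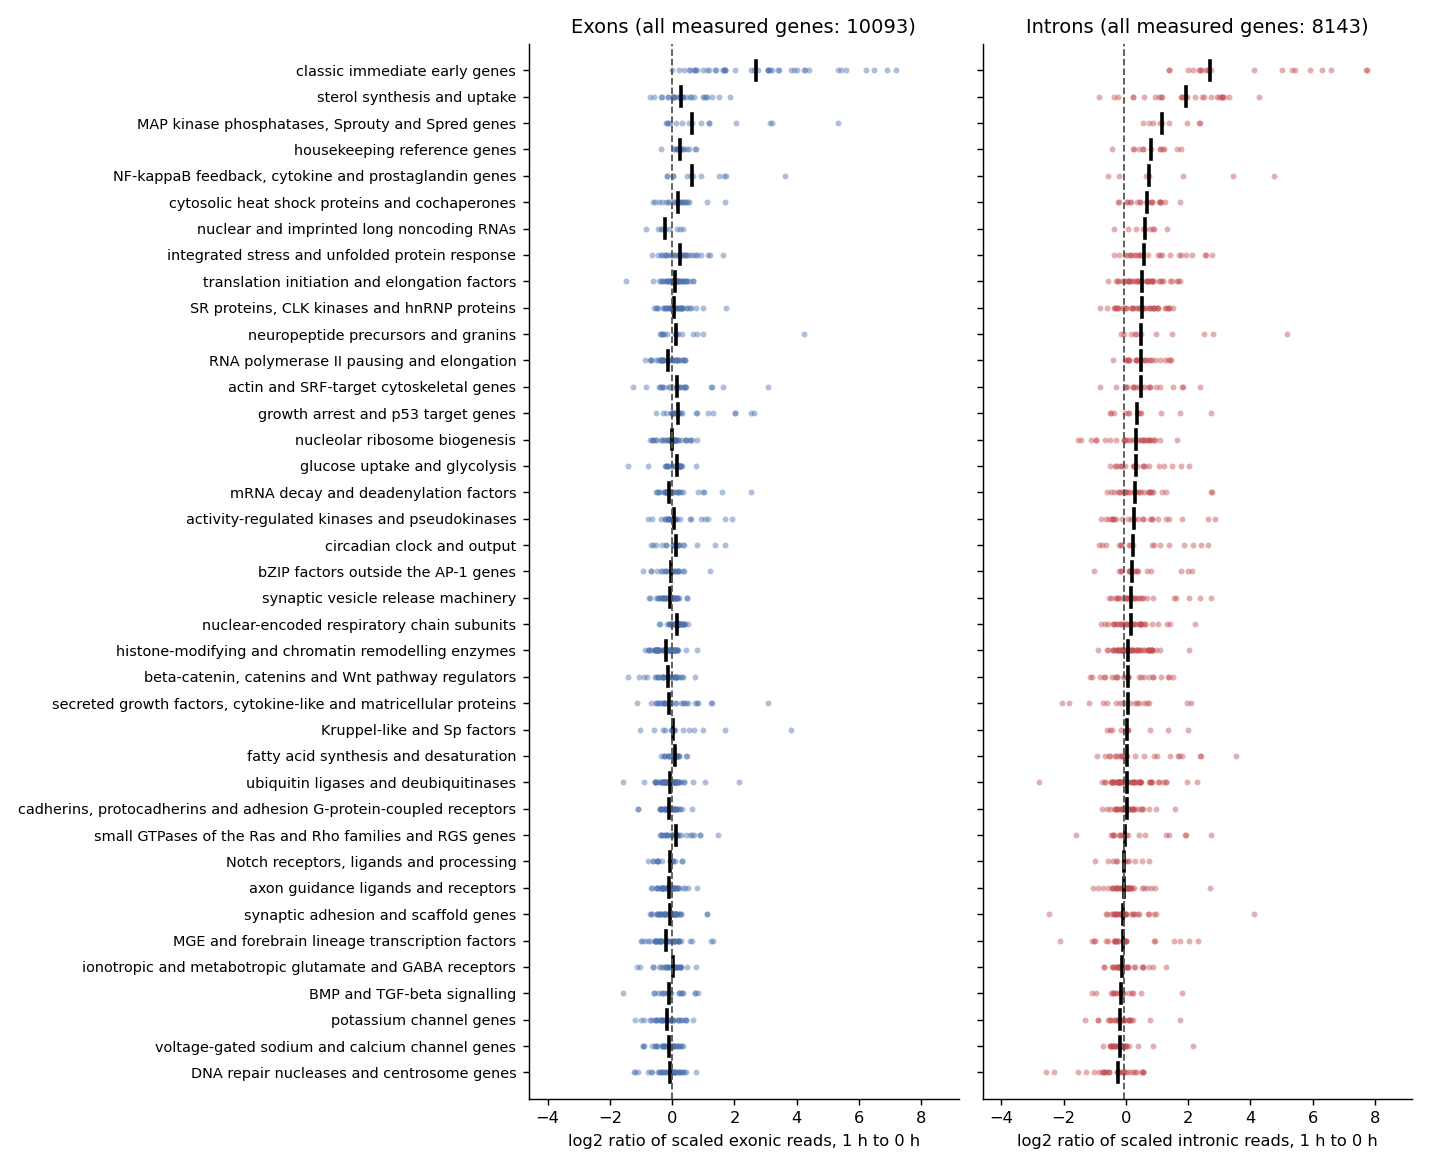
Log2 ratios (1 h to 0 h) of the measured members of the gene lists in exons (left, blue) and introns (right, red), each point 1 gene, with black bars at the list medians and dashed lines at the median of all measured genes. Lists are ordered by intronic median. The sterol list has an intronic median of 1.92 and an exonic median of 0.29, and the immediate early list 2.69 in both.

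Across the 7363 genes measured in both, exonic and intronic log2 ratios had a Spearman correlation of 0.19 and a Pearson correlation of 0.33. This describes genes of the same 2 libraries, which are not independent replicates. Of the 609 genes higher in introns, 47 were higher in exons, 2 lower, 492 neither and 68 not measured. Of the 159 genes higher in exons, 74 were measured in introns, and 47 of them were higher there, 1 lower (Ttc8) and 26 neither. Of the 144 lower in exons, 78 were measured in introns: 15 were lower, 2 higher and 61 neither. The exonic higher genes had a median intronic log2 ratio of 2.13, and the exonic lower genes -0.35.

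**Figure D5:**
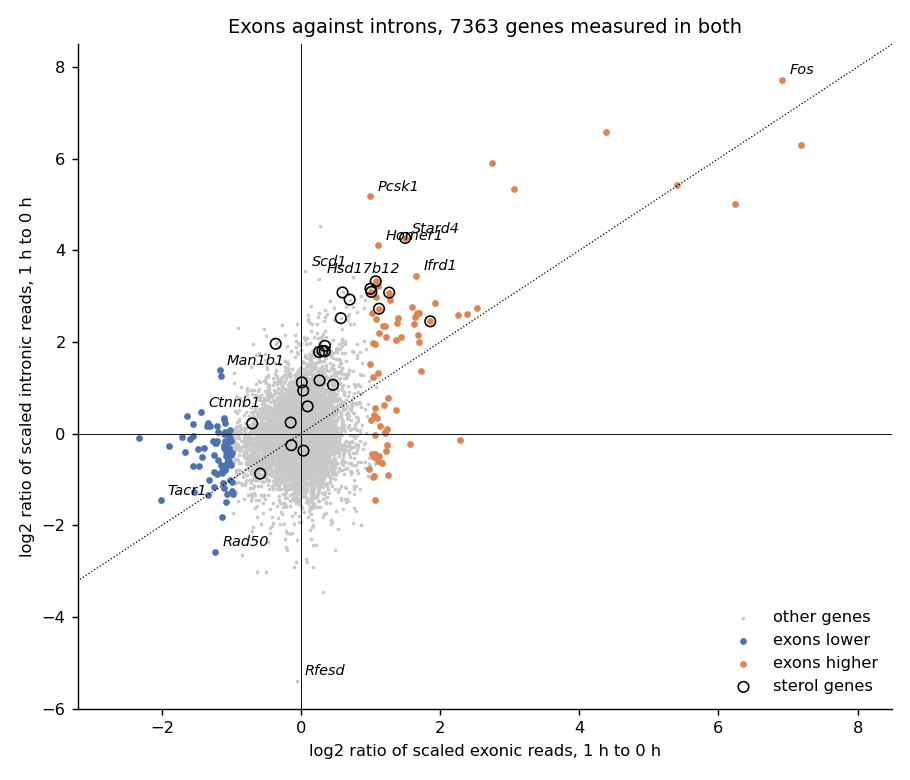
Exonic against intronic log2 ratio, 1 h to 0 h, for the 7363 genes measured in both, with genes higher (orange) or lower (blue) in exons and sterol genes (open circles) marked. The dotted line is equality. The sterol genes called in introns lie above it, and the 78 blue points have a median of -0.35 on the intronic axis.

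The largest gaps with introns above exons were in Has3, Pcsk1, Scd1, Mta2, Fosl2, Hsd17b12, Peg10 and Homer1. Homer1, whose short immediate early form ends within an intron of the longer gene, had 362, 4593 and 1134 intronic reads, 17.3-fold (15.5 to 19.3), and 162, 392 and 478 exonic reads. All 8 of its introns with at least 5 reads were higher. Pcsk1 was 37.0-fold higher in introns (23.7 to 61.1), in 12 of 12 introns. Has3, a hyaluronan synthase, had 1, 25 and 25 intronic and 55, 75 and 191 exonic reads, and Peg10, an imprinted gene derived from a retrotransposon, 6, 58 and 12 intronic and 194, 320 and 680 exonic reads. In Has3, Hsd17b12, Peg10, Pcsk1, Fosl2 and Homer1 the exonic reads were highest at 6 h. Mta2, of a histone deacetylase complex, had 6, 23 and 22 intronic reads while its exonic reads were 82, 49 and 53.

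The gaps in the other direction were in Rfesd, Smim19, Alg5, Cbr4, Xiap, Aifm2, Smim20 and Plec, in which introns were lower and exons were not called. All 8 had 22 to 37 intronic reads at 0 h and at most 4 at 1 h. Xiap, an inhibitor of caspases, had 23, 2 and 15 intronic reads and 126, 150 and 125 exonic reads.

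The intronic lower genes included a few that were spread over several introns. Sh3pxd2b, an adaptor of invasive cell protrusions, had 123, 23 and 80 intronic reads, 0.255 (0.156 to 0.400), in 7 of 7 introns, with 201, 170 and 188 exonic reads. Dars, the aspartyl-tRNA synthetase, had 122, 24 and 59 intronic reads, 0.268 (0.165 to 0.417), in 9 of 9 introns, with 254, 318 and 182 exonic reads. Mre11a, the partner of Rad50 in DNA break repair, had 64, 9 and 31 intronic reads, 0.191 (0.0837 to 0.387), in 6 of 6 introns. Wnt7a, a secreted Wnt ligand, had 81, 14 and 36, 0.235 (0.123 to 0.418), with 172, 142 and 75 exonic reads. In each of the 4 the count at 6 h lay between those at 0 h and 1 h. Of the DNA repair and centrosome list 5 of 33 were lower in introns and 0 higher, beside 6.85% for the same intron lengths. With the exonic factors 14 of them were lower, and with all mapped reads 11. On those scales 2214 and 1276 of all 8143 genes measured in introns were lower. In 8 of the 15 highest-ranked intronic lower genes more than 50% of the 0 h reads came from 1 intron.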

How the data were processed

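RNA was read in 3 libraries, 1 each at 0, 1 and 6 h. The authors' deposited counts are raw sense read counts per gene in exons and introns, made from uniquely mapped 35-base reads with repeats kept, per the file headers. Their deposited coverage signal, normalised to a fixed number of reads per the file headers, served as an alternative only. The genome build is mm9 per the submitters' processing notes, and which aligner was used is not given in these sources.

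Exonic and intronic counts were each scaled over all 3 libraries by TMM (edgeR 4.0.16, R 4.3.3). Ratios have exact Clopper-Pearson 95% intervals from Python 3.11.15 with scipy 1.17.1. Log2 ratios used a pseudocount of 0.5 reads. With 1 library per time no test was run. Scripts were tested on simulated data. Genes that share reads with copies are undercounted, and 1534 of 25562 gene models overlap another on the same strand.

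Named genes are, ranked by the interval bound nearest to 1, the 30 higher outside the immediate early list and 30 lower in exons, 15 and 15 in introns, the 8 and 8 with the largest gap between exons and introns, and list members that were called or had the highest or lowest ratio. Of 1528 genes in 40 function lists and 7 marker lists, 1510 were matched, 162 under an older symbol. Members and lists were chosen with earlier results of these data known. Promoter sequences are from RefSeq (GRCm38.p6), matched by gene identifier. Alternatives were DESeq2 1.42.0 size factors, exonic totals, all mapped reads, other read minimums and folds, coverage, coding reads, leaving out each gene's exon or intron of most reads, and leaving out overlapping genes. Some named genes are not reported here or drawn in the figures.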

Additional observations from a re-analysis of the deposited data

How the results depend on the processing

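The counts of called genes moved most with the scale and the limits. In exons, the 159 higher and 144 lower genes became 296 and 52 on all mapped reads, and 288 and 49 on the authors' coverage. They became 82 and 51 with a minimum of 50 reads, 380 and 535 at 1.5-fold, and 59 and 19 at 3-fold. With no read minimum 242 were lower. The median log2 ratio of 0.01 became 0.25 on mapped reads and 0.24 on coverage. In introns, the 609 higher and 504 lower genes became 211 and 2214 with the exonic factors, 300 and 1276 on mapped reads, and 392 and 194 with a minimum of 50 reads. DESeq2 size factors gave 165 and 134 exonic calls, coding reads 154 and 141, and leaving out each gene's exon of most reads 122 and 134. No call of a named gene reversed under the alternatives run. On mapped reads and on coverage Abcd3, Arhgap32, Celsr2, Man1b1, Mamld1, Pcdh1, Rsf1 and Sh3glb1 lay between 0.508 and 0.555 and were not called. On coding reads the ratios of Arl5b (1.90), Spty2d1 (1.78), Pcsk1 (1.99), Homer1 (1.70), Ece1 (0.521), Slc16a6 (0.509) and Rsf1 (0.520) missed the 2-fold limit. The alternatives on coding reads, on the exon or intron of most reads, and on the scale of named introns were chosen after seeing the data. The planned count of distinct positions per gene was not run. No replicate could be left out, and no paired analysis was possible because there was 1 library per time. Depth limits the lower genes most: 23 of 144 had at least 100 reads in a library, against 50 of 159 higher genes.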
